A study of Mus musculus with 10 samples.

Results

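Polycomb-Group (PcG) binding was examined at 9 genes of fibroblast growth factor ligands, namely Fgf3, Fgf5, Fgf8, Fgf9, Fgf10, Fgf15, Fgf17, Fgf18 and Fgf20. They were chosen by name and located in the GENCODE annotation of mm9, where all 9 were found among the 22350 protein-coding genes of chromosomes with at least 1 peak. A peak was counted for a gene when it overlapped the gene body plus 10 kb either side, called its window below. The start site was the 5′ end of the gene record unless another start is named.

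ChIP-seq was carried out in J1 ESCs, a mouse line grown with serum and leukemia inhibitory factor on embryonic fibroblast feeders that were depleted before cross-linking, and in NSCs obtained from J1 ESCs by differentiation in culture and kept in medium with EGF and FGF. No genetic change or treatment set any group apart. ESCs were profiled for Ring1b and Cbx2, subunits of PRC1, for Ezh2, the methyltransferase of PRC2, and for H3K27me3, the mark that Ezh2 deposits, while NSCs were profiled for Ring1b and H3K27me3 only. There was 1 library for each combination, so no difference between cell types has a replicate check, and none of the counts below comes with a test. Both cell types were cross-linked in 1% formaldehyde for 10 min, and for Ring1b the paper, but not the labels, adds an earlier step with EGS, a longer cross-linker. The 6 lists give peak starts and ends with no height or score, the number of tags behind them is unknown, and a missing peak means that no stretch passed the authors' threshold. ESC lists held 1033 to 2335 peaks, and the NSC lists 1389 for Ring1b and 1647 for H3K27me3. Expression was not measured in these libraries, so the cell labels could be set only against PcG peaks. Of 6 genes of neural stem cells matched, the start sites of Nes, Olig2 and Pax6 lay inside ESC Ring1b peaks and no NSC peak. Those of Slc1a3 and Fabp7 lay in no peak. The start of Sox2, the last of the 6, which both cell types use, lay inside an NSC H3K27me3 peak of 1800 bp. Sox2 also had an ESC H3K27me3 peak of 1200 bp, from 274 to 1473 bp downstream of its start. The start sites of the ESC genes Pou5f1, Nanog, Klf4, Zfp42 and Esrrb lay in no peak of either cell type. The window of Esrrb, however, held ESC Ring1b, Ezh2 and H3K27me3 peaks and an NSC H3K27me3 peak. Over all protein-coding genes, 91.1% had a start site in no peak and 7.03% in an ESC Ring1b peak. The shares in NSC peaks were 1.74% for Ring1b and 1.77% for H3K27me3. A start in no peak, or in no NSC peak, is thus what most genes show and does not check the cell labels.

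Fibroblast growth factors are secreted proteins that bind receptor tyrosine kinases together with heparan sulfate and signal largely through the MAP kinase cascade. They pattern the embryo, including the midbrain, limb, inner ear and lung, and many of them are silent outside short windows of development. PcG proteins are known to hold such genes silent in ESCs, with PRC2 depositing H3K27me3 and PRC1 binding the same regions, most often over CpG-rich start sites.

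The bases just upstream of 5 start sites are shown because these genes range from peaks in all 6 lists to none, and the dinucleotide CG is in capitals because PcG proteins favour regions rich in it. The sequences are the 250 bases before the start, read 5′ to 3′ from the mm9 genome. They lie at chr14:58691273-58691522 (plus strand) for Fgf9, chr7:152082187-152082436 (plus strand) for Fgf15, chr11:33047401-33047650 (minus strand) for Fgf18, chr13:119503256-119503505 (plus strand) for Fgf10 and chr14:71042076-71042325 (minus strand) for Fgf17. For Fgf9, Fgf10 and Fgf18 the start is that of RefSeq, placed on mm9 by the single exact match of its promoter sequence, and for the others it is that of the gene record. None of the 5 stretches overlaps an annotated exon of its gene.
Fgf9: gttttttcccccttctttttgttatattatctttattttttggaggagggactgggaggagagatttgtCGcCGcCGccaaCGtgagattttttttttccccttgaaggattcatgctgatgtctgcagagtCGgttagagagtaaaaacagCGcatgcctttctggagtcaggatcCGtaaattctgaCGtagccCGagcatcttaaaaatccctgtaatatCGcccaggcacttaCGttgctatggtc
Fgf15: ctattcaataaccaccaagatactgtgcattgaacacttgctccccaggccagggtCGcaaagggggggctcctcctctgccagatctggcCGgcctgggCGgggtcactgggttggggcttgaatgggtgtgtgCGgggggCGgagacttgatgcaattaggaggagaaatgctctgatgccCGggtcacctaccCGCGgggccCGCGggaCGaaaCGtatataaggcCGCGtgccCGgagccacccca
Fgf18: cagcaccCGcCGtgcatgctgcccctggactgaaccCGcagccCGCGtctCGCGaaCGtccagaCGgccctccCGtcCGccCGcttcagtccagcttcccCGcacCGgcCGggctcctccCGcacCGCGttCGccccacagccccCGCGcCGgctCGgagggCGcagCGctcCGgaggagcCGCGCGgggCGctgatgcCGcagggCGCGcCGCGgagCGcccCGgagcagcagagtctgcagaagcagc
Fgf10: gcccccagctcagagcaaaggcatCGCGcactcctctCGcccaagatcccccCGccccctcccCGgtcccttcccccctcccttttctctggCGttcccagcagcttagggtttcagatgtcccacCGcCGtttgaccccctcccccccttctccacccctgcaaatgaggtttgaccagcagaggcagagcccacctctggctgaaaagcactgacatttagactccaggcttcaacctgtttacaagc
Fgf17: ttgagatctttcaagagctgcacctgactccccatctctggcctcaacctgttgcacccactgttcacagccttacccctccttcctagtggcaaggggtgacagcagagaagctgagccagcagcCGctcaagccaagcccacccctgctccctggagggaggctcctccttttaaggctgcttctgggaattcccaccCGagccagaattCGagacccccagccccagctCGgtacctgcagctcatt
Fgf18, whose start lay in an NSC Ring1b peak alone, had 37 CG dinucleotides in this stretch. Fgf15 had 15, Fgf9 had 11, and Fgf10 and Fgf17, which had no peak in any list, had 8 and 4. Fgf3, Fgf5, Fgf8 and Fgf20 are not shown, so these counts do not relate CG number to binding over the ligand genes. Over the 22345 protein-coding genes with complete sequence before the start of the gene record, at least 1 CG was found in 92.5%. The median was 8 and the quartiles were 3 and 18. The stretches of Fgf9 and Fgf10 lie before RefSeq starts instead, so they are not matched to this background. All 250 bases shown for Fgf9 lay under the 4 ESC lists and NSC Ring1b, and 122 of them under NSC H3K27me3.

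In ESCs, Ring1b bound 5 of the 9 genes, Fgf3, Fgf5, Fgf8, Fgf9 and Fgf15, and in each of them the peak held the start site. Over all 22350 genes the share with the start under ESC Ring1b was 7.03%. The start site lay inside an H3K27me3 peak for 3 of the 9 genes (4.31% of all genes), inside an Ezh2 peak for 2 (2.56%) and inside a Cbx2 peak for 1 (1.15%). In windows, an ESC peak was found for 5 genes for Ring1b (11.5% of all genes), 4 for H3K27me3 (9.97%), 4 for Ezh2 (5.28%) and 3 for Cbx2 (3.09%). In NSCs, 1 start site lay inside a Ring1b peak (1.74% of all genes) and 2 inside an H3K27me3 peak (1.77%), and the windows with a peak numbered 2 for Ring1b (4.64%) and 6 for H3K27me3 (4.7%). The shares over all genes describe the lists, and because the 9 genes were picked with earlier results of these data known, their higher shares are not independent evidence.

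**Figure D1:**
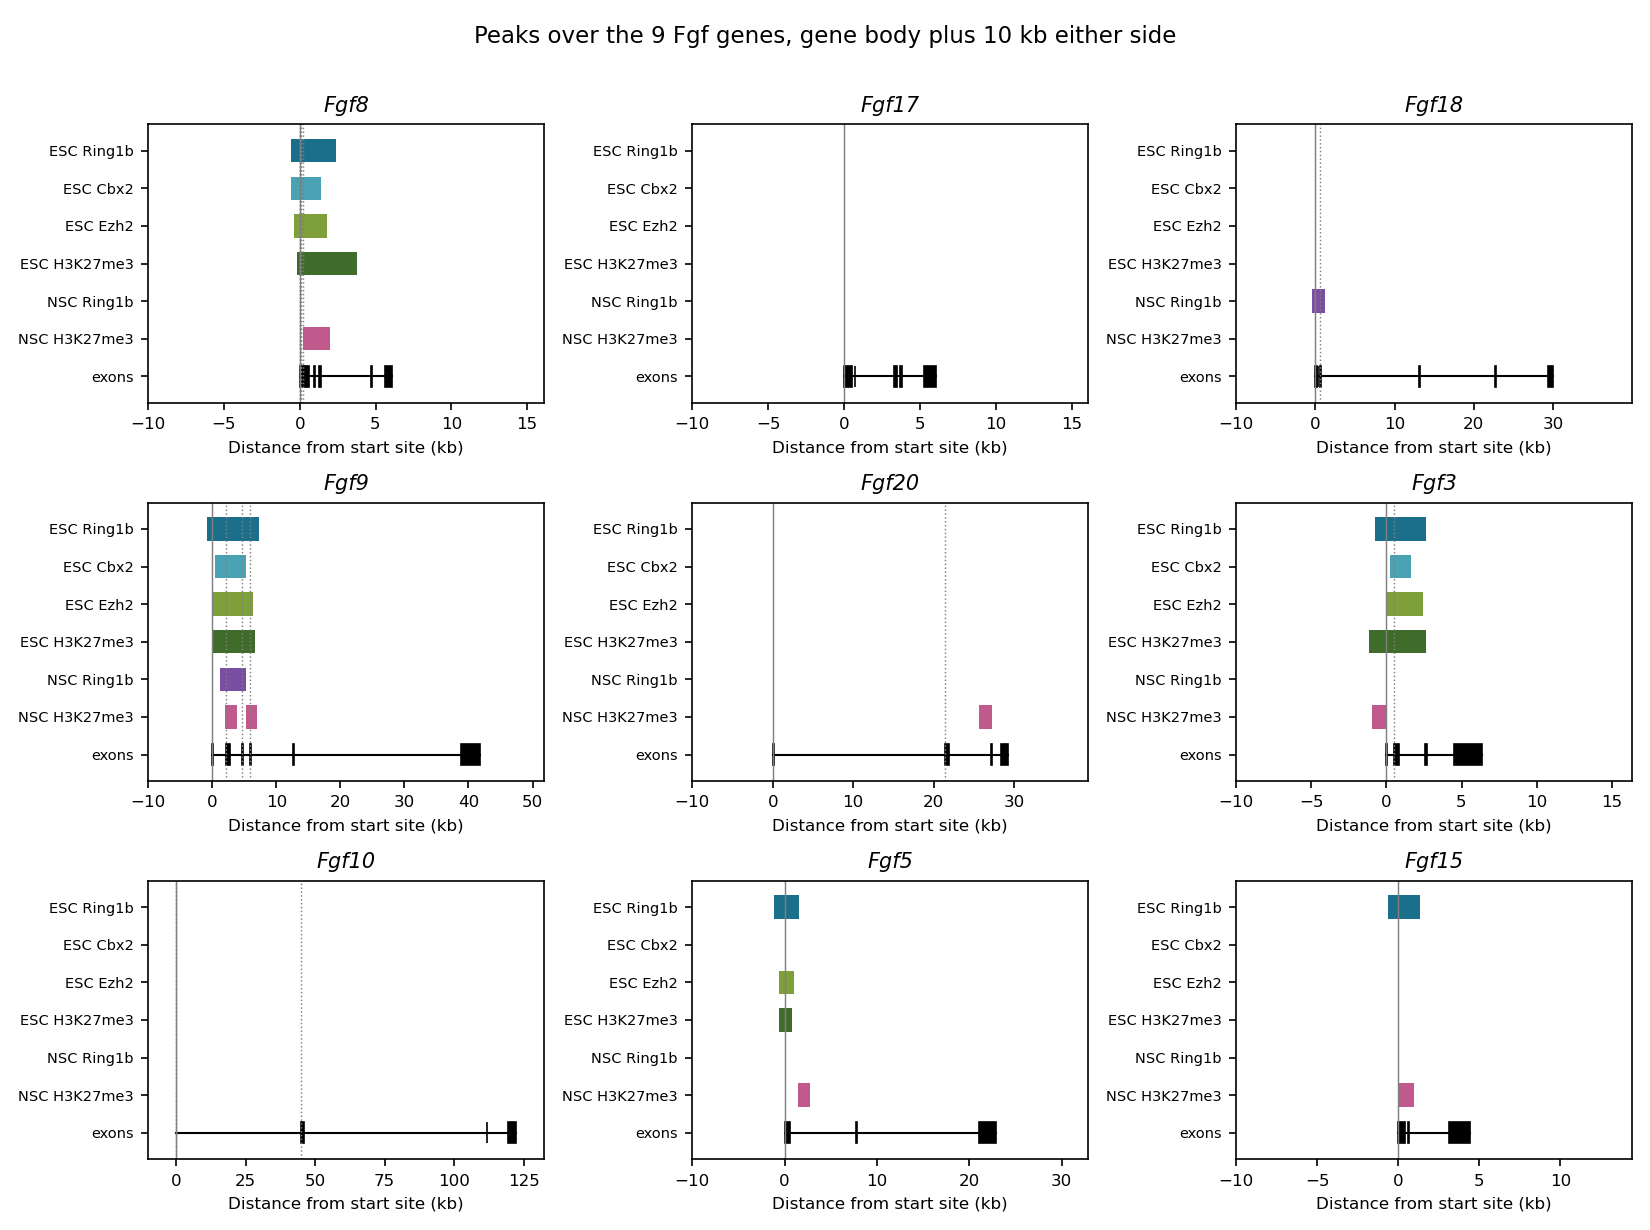
Peaks of the 6 lists (coloured bars) over each of the 9 Fgf genes, plotted by distance from the start site of the gene record in kb, with the exon blocks of the gene in black at the bottom of each panel. The solid vertical line is the start of the gene record and dotted lines are other annotated transcript starts. ESC peaks sit at the 5′ ends of Fgf8, Fgf9, Fgf3, Fgf5 and Fgf15, and the panels of Fgf17 and Fgf10 are empty.

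All 25 peaks in the 9 windows lay within 1202 bp upstream of the start or inside the gene. Of their 71800 bp, 87.5% lay inside the gene, and 24 of the 25 peaks had more bases inside the gene than outside it. Exon block 1 was touched by 18 of them. None held the start site of another protein-coding gene, although the windows of Fgf8, Fgf17 and Fgf20 also held the start sites of Npm3, Epb4.9 and Efha2. The flanks of the windows therefore added no peak that the gene bodies lacked. How peaks lie over other genes was not counted, so these placements cannot be called particular to the 9 genes.

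Fgf8, the signal of the midbrain-hindbrain organizer and of the limb ridge, was the only one of the 9 genes with the start of its gene record under all 4 ESC lists. Fgf8 (ENSMUSG00000025219.7) lies on the minus strand of chromosome 19 from 45811288 to 45817405 and has 6 exon blocks. Its ESC Ring1b peak was 3000 bp wide, from 595 bp upstream to 2404 bp downstream of the start. The Cbx2 peak was 2000 bp, the Ezh2 peak 2200 bp and the H3K27me3 peak 4000 bp, and the stretch under all 4 was 1600 bp long. The H3K27me3 peak covered 62.2% of the gene and was wider than or as wide as 91.1% of the peaks in its list. Exon blocks 1 to 4 with 529 coding bases lay under each of the Ring1b, Ezh2 and H3K27me3 peaks. In NSCs no Ring1b peak was called within 92405 bp of the start, and an H3K27me3 peak of 1800 bp remained that began 205 bp downstream of the start. That peak lay entirely inside the ESC H3K27me3 peak and missed the start of the gene record, but it held the most downstream of the 5 annotated Fgf8 transcript starts.

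Fgf17 and Fgf18 belong to the same subfamily as Fgf8, and neither had an ESC peak. Fgf17 (ENSMUSG00000022101.5), which acts with Fgf8 in the midbrain and cerebellum, lies on the minus strand of chromosome 14 from 71036012 to 71042075 and had no peak of any list. Its nearest ESC Ring1b peak was 86275 bp from the start. Fgf18 (ENSMUSG00000057967.6), a regulator of cartilage and bone, lies on the minus strand of chromosome 11 from 33017430 to 33047400. It was the only one of the 9 genes with a Ring1b peak in NSCs and none in ESCs. The NSC peak was 1600 bp wide, from 400 bp upstream to 1199 bp downstream of the start, and covered both annotated transcript starts and 69 coding bases. No H3K27me3 peak of either cell type lay within 47601 bp of the Fgf18 start. A Ring1b peak in the window of NSCs alone was found for 2.27% of the genes without one in ESCs, and at the start site for 0.606%.

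Fgf9 carried the widest peaks of the 9 genes in each of the 4 ESC lists and the only Ring1b peak that was seen in both cell types. Fgf9 (ENSMUSG00000021974.8), a ligand needed for testis and lung development, lies on the plus strand of chromosome 14 between 58689384 and 58731174, with 4 different transcript starts. The ESC Ring1b peak was 8000 bp wide, at or above 92.8% of its list, the H3K27me3 peak 6600 bp (97.2%), the Ezh2 peak 6400 bp (95.6%) and the Cbx2 peak 4800 bp (87%). All 4 shared 4800 bp, from 417 to 5216 bp downstream of the start of the gene record. In NSCs Ring1b kept 4000 bp, all of it inside the ESC peak and with the same centre, 3216 bp downstream of that start. H3K27me3 kept 2 peaks of 1800 bp each, which shared 3200 bp with the ESC peak and were separated by a gap, and 1800 bp were under both NSC lists at once. The coding bases of exon block 2, 277 in number, lay under all of the ESC peaks, the NSC Ring1b peak and the first of the NSC H3K27me3 peaks.
The reading of Fgf9 depends on which start is used. The gene record begins 17 bp before the Ezh2 and H3K27me3 peaks of ESCs, so its start counted as inside Ring1b alone, although edges in these lists fall on a 200 bp grid. The RefSeq start of Fgf9 lies 2139 bp further downstream, at 58691523, and was inside a peak of all 6 lists. Fgf20 (ENSMUSG00000031603.8), a ligand of the same subfamily with roles in the kidney and inner ear, lies on the minus strand of chromosome 8 from 41364520 to 41393685 and had no ESC peak. In NSCs it had an H3K27me3 peak of 1600 bp deep inside the gene, over exon block 3 with 104 coding bases and 1496 bp of intron. The peak was 25685 bp downstream of the start of the gene record and 4307 bp downstream of the other annotated start, so neither Fgf20 start lay in a peak.

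Fgf3 was bound in ESCs at its first exons by all 4 targets. Fgf3 (ENSMUSG00000031074.8), which takes part in inner ear formation, lies on the plus strand of chromosome 7 from 152023988 to 152030341. The ESC peaks were 3400 bp for Ring1b, 3800 bp for H3K27me3, 2400 bp for Ezh2 and 1400 bp for Cbx2, and 1400 bp lay under all 4. Ring1b and H3K27me3 held the start of the gene record, whereas the Ezh2 peak began 13 bp and the Cbx2 peak 213 bp downstream of it. The RefSeq start, 529 bp further downstream, lay inside all 4 ESC peaks and no NSC peak. In NSCs the Ring1b peak was absent and H3K27me3 covered 1000 bp, the smallest width in any list, from 987 bp upstream to 12 bp downstream of the start, so that 13 bp of the gene were left under it. Fgf10 (ENSMUSG00000021732.8), a ligand of limb and lung mesenchyme from the same subfamily as Fgf3, lies on the plus strand of chromosome 13 from 119458598 to 119580922. It had no peak of any list in its window of 142325 bp, the longest of the 9, and its nearest peak was an NSC H3K27me3 peak 271998 bp from the start.

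Fgf5 had Ring1b, Ezh2 and H3K27me3 peaks over its start in ESCs and no Cbx2 peak. Fgf5 (ENSMUSG00000029337.1), an inhibitor of hair growth that is also a marker of the early epiblast, lies on the plus strand of chromosome 5 from 98683203 to 98706049. The Ring1b peak was 2800 bp wide, the Ezh2 peak 1600 bp and the H3K27me3 peak 1400 bp, and exon block 1 with 349 coding bases lay under each of them. The nearest Cbx2 peak was 66603 bp from the start. NSCs had no Ring1b peak at Fgf5, and their H3K27me3 peak, also 1400 bp wide, lay wholly in the first intron, from 1398 to 2797 bp downstream of the start. The ESC and NSC H3K27me3 peaks of Fgf5 shared no base and were 600 bp apart, so that the window counts as keeping the mark while the marked bases differ.

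Fgf15 was the only one of the 5 genes bound by Ring1b in ESCs that had no other ESC peak. Fgf15 (ENSMUSG00000031073.5), an intestinal hormone that limits bile acid synthesis and is also made in the embryonic brain, lies on the plus strand of chromosome 7 from 152082437 to 152086858. The ESC Ring1b peak was 2000 bp wide, from 636 bp upstream to 1363 bp downstream of the start, the narrowest ESC Ring1b peak of the 5. The nearest ESC H3K27me3 peak was 55837 bp away and was the one over Fgf3. In NSCs Ring1b was not called, and an H3K27me3 peak of 1000 bp held the start and 357 coding bases, all of it inside the bases bound by Ring1b in ESCs.

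**Figure D2:**
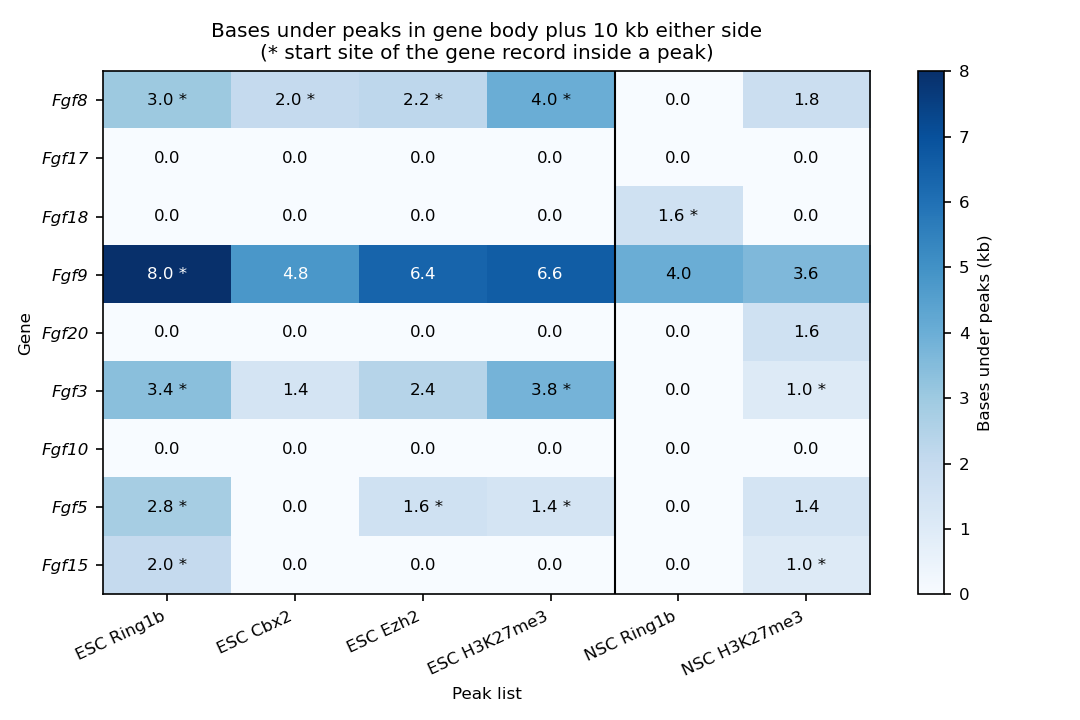
Bases under peaks, in kb, in the window of each Fgf gene (rows) for each peak list (columns), with an asterisk where the start of the gene record was inside a peak and a line between ESC and NSC lists. Fgf9 has the most covered bases in every list, from 3.6 kb to 8 kb, and Ring1b falls to 0 in NSCs for Fgf8, Fgf3, Fgf5 and Fgf15.

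Of the 5 genes with an ESC Ring1b peak in the window, 4 had none in NSCs, and Fgf9 kept one. Loss of this kind was the rule in these lists, since 77.1% of all genes with an ESC Ring1b peak in the window had none in NSCs. At the start of the gene record all 5 lost Ring1b, compared with 83.3% of all genes, and at RefSeq starts Fgf9 kept it. Counts of 4 of 5 and 5 of 5 are too few to be set apart from these shares.
H3K27me3 peaks were seen in the windows of more genes in NSCs (6) than in ESCs (4). All 4 genes with an ESC H3K27me3 peak in the window (Fgf3, Fgf5, Fgf8 and Fgf9) had a peak in NSCs too. Over all genes with one in ESCs, 70.4% had none in NSCs. The contrast rests on 4 genes picked with earlier results known, and at Fgf5 the ESC and NSC peaks shared no base. Fgf15 and Fgf20 had H3K27me3 in NSCs alone, which was found for 1.94% of the genes without it in ESCs. At the start of the gene record the mark was kept at Fgf3, lost at Fgf5 and Fgf8 and gained at Fgf15, beside a loss at 74.6% of all genes with it in ESCs and a gain at 0.701% of those without. The call at Fgf3 rested on 12 bp past that start, and at RefSeq starts Fgf3 lost the mark and Fgf9 kept it. Bases under H3K27me3 peaks were fewer in NSCs at 3 of the 4 genes. They went from 3800 to 1000 bp at Fgf3, from 4000 to 1800 bp at Fgf8 and from 6600 to 3600 bp at Fgf9. At Fgf5 they were 1400 bp in both. How often this occurred over all genes was not counted. The NSC list also had narrower peaks as a whole, with a median of 1600 bp against 1800 bp in ESCs.
The NSC H3K27me3 peaks of the 9 genes were narrow. All 7 were between 1000 and 1800 bp wide, in a list where 35.5% of peaks were 2 kb or wider, and with peaks at least 2 kb wide alone the 9 genes had no NSC H3K27me3 peak, so that Fgf3, Fgf8 and Fgf9 would count as having lost the mark and Fgf5, Fgf15 and Fgf20 as never having it. Under the same limit the NSC Ring1b peak of Fgf18 was also absent. Of the 16 ESC peaks, 13 were 2 kb or wider, in lists where such peaks made up 63% for Ring1b, 41.3% for H3K27me3, 45.9% for Ezh2 and 32.1% for Cbx2.

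Some comparisons were chosen after the values had been seen. Ring1b was lost and H3K27me3 kept in the windows of 3 of the 4 genes that had both in ESCs, Fgf3, Fgf5 and Fgf8, compared with 18.1% of the 1687 genes of that kind. An NSC H3K27me3 peak was found in the windows of all 5 genes with an ESC Ring1b peak, and in 27.3% of the 2572 genes with such a peak. In each of the 5 the NSC H3K27me3 peaks overlapped bases that Ring1b had bound in ESCs. The overlap was 3600 bp at Fgf9, 1800 bp at Fgf8, 1000 bp at Fgf15, 800 bp at Fgf3 and 200 bp at Fgf5. How often such peaks overlap over all genes was not counted, and the 200 bp at Fgf5 equal the step of the peak caller. All of these rest on 1 library per target and on NSC peaks under 2 kb wide.

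PcG targets in ESCs, taken as Ring1b peaks that overlap Cbx2, Ezh2 and H3K27me3 peaks because a list of Cbx7, which the paper's definition includes, was not analysed here, held the start sites of Fgf3, Fgf8 and Fgf9. Such a target held the start site of 1.55% of all protein-coding genes. Without the requirement for Cbx2, Fgf5 also qualified. Taken over the start of the gene record in all 6 lists, the combination seen at Fgf15 (ESC Ring1b and NSC H3K27me3 alone) was shared by 30 protein-coding genes, itself included, and that of Fgf3 by 34. The combination of Fgf8, all 4 ESC lists and neither NSC list, occurred at 51 genes, that of Fgf18 at 116, that of Fgf5 at 164 and that of Fgf9 at 591. Fgf10, Fgf17 and Fgf20 shared theirs, no peak at the start, with 91.1% of genes.

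Of the 5 genes bound by Ring1b in ESCs, 4 had a ratio of observed to expected CpGs above the median of all genes. The range of the 5 overlapped that of the other 4 genes. In the 500 bp either side of the start of the gene record, the ratio of observed to expected CpGs was 0.789 at Fgf8, 0.738 at Fgf5, 0.656 at Fgf15, 0.583 at Fgf3 and 0.494 at Fgf9. The 4 genes without ESC Ring1b ran from 0.345 at Fgf10 and 0.399 at Fgf17 to 0.805 at Fgf20 and 0.914 at Fgf18, so the ranges overlapped and the highest value was outside the bound genes. The median was 0.549 over all genes and 0.747 over the 1571 genes with a start inside an ESC Ring1b peak. At the RefSeq start of Fgf9 the ratio was 0.963. The RefSeq start of Fgf10 lies 44908 bp downstream of the start of its gene record, and the ratio there was 0.532. At the other annotated start it was 0.793 for Fgf3, 0.575 for Fgf20 and 0.521 for Fgf18, so both ranges depend on the start used.
Within the peaks, the 16 ESC peaks had ratios from 0.532 to 0.854. The NSC Ring1b peaks of Fgf18 (0.752) and Fgf9 (0.726) lay in that range, as did the NSC H3K27me3 peaks of Fgf15 (0.768), Fgf8 (0.565) and Fgf9 (0.634 and 0.572). The other 3 NSC H3K27me3 peaks, those of Fgf5 (0.331), Fgf3 (0.304) and Fgf20 (0.218), were poorer in CpGs than any ESC peak of the 9 genes.

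**Figure D3:**
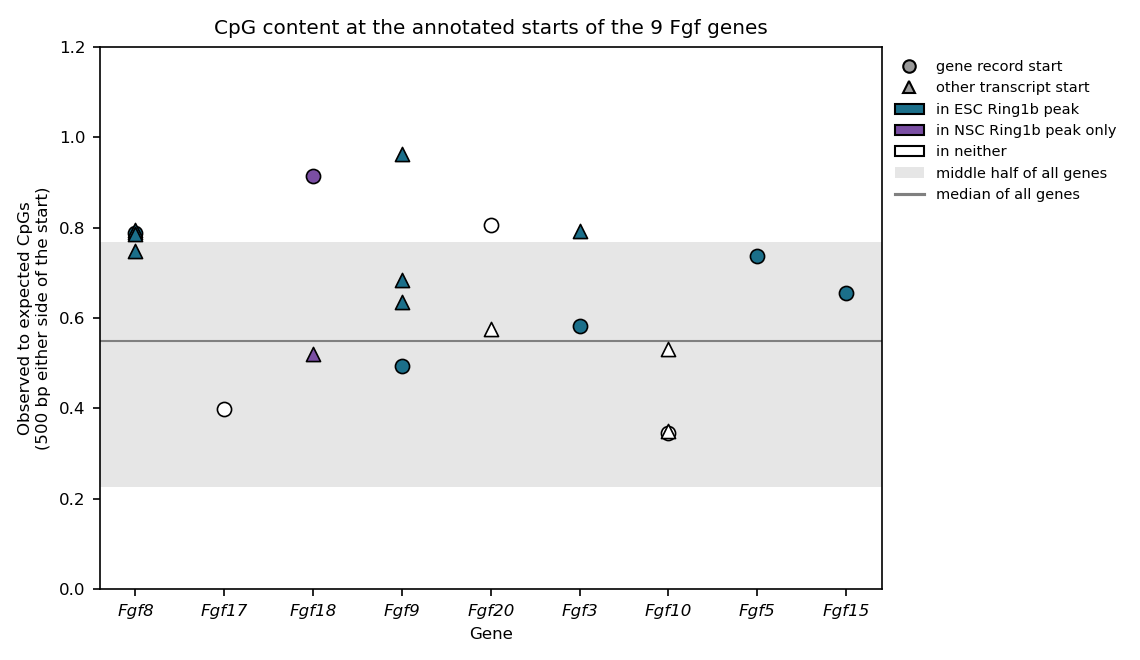
Ratio of observed to expected CpGs in the 500 bp either side of each annotated start of the 9 Fgf genes, with circles for the start of the gene record, triangles for other transcript starts and colour for Ring1b peaks at that start. The grey band spans the quartiles of all protein-coding genes (0.227 to 0.769) and the grey line is their median of 0.549. Starts bound in ESCs, bound in NSCs alone and unbound overlap in CpG content.

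The other genes of the pathway are set beside all protein-coding genes, of which 8.93% had a start site in at least 1 of the 6 lists and 17.7% a peak of any list in the window. Of 13 other Fgf family genes, 5 had a start site in at least 1 list and 8 had no peak in the window. Of the 9 chosen genes, 6 had such a start and 2 had no peak in the window. The 13 also include ligands, such as Fgf4 and Fgf23, so this does not set ligands against other genes. Fgf12 and Fgf13, which encode intracellular proteins that bind sodium channels, and Fgf16, a relative of Fgf9, had ESC Ring1b at the start. At the start, Fgf12 had it with Cbx2 and Ezh2, and Fgf16 with Ezh2. Upstream of its start, Fgf12 also had an ESC H3K27me3 peak of 1600 bp and an NSC Ring1b peak of 1000 bp. The window of Fgf12 thus kept Ring1b, as that of Fgf9 did. Fgf16 also had a Cbx2 peak of 1800 bp that began 383 bp downstream of its start. At the start, Fgf13 had the same combination as the gene record of Fgf9, Ring1b in ESCs and nothing else, with a peak of 2400 bp. Another ESC Ring1b peak, of 1800 bp, began 433048 bp downstream of the Fgf13 start. The windows of these genes differed, since that of Fgf9 had peaks of all 6 lists and that of Fgf13 of ESC Ring1b alone. Fgf11 had only an ESC H3K27me3 peak of 1000 bp, and Fgf4, a ligand made by ESCs, only an NSC H3K27me3 peak of 2200 bp. Fgf1, Fgf2, Fgf6, Fgf7, Fgf14, Fgf21, Fgf22 and Fgf23 had no peak.
Of 7 receptor and co-receptor genes, 2 had a start site in a peak, beside the same 8.93%. Fgfr3, the receptor best known from the growth plate, matched Fgf8 over the 6 lists, with ESC peaks of 4000 bp for Ring1b, 2800 bp for Cbx2, 3600 bp for Ezh2 and 4600 bp for H3K27me3 at the start and none in NSCs. Kl, which encodes the Klotho co-receptor of the hormone Fgf23, had an ESC H3K27me3 peak of 1800 bp alone. Fgfr1, Fgfr4, Fgfrl1 and Klb had no peak in the window. The annotation gives Fgfr2 a record of 3009069 bp, so its window counts are not used. None of the 12 feedback regulators and transcriptional targets matched, among them Dusp6, Spry1, Spry2, Spry4, Etv4 and Etv5, had a peak of any list in the window, beside 17.7% of all genes.

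**Figure D4:**
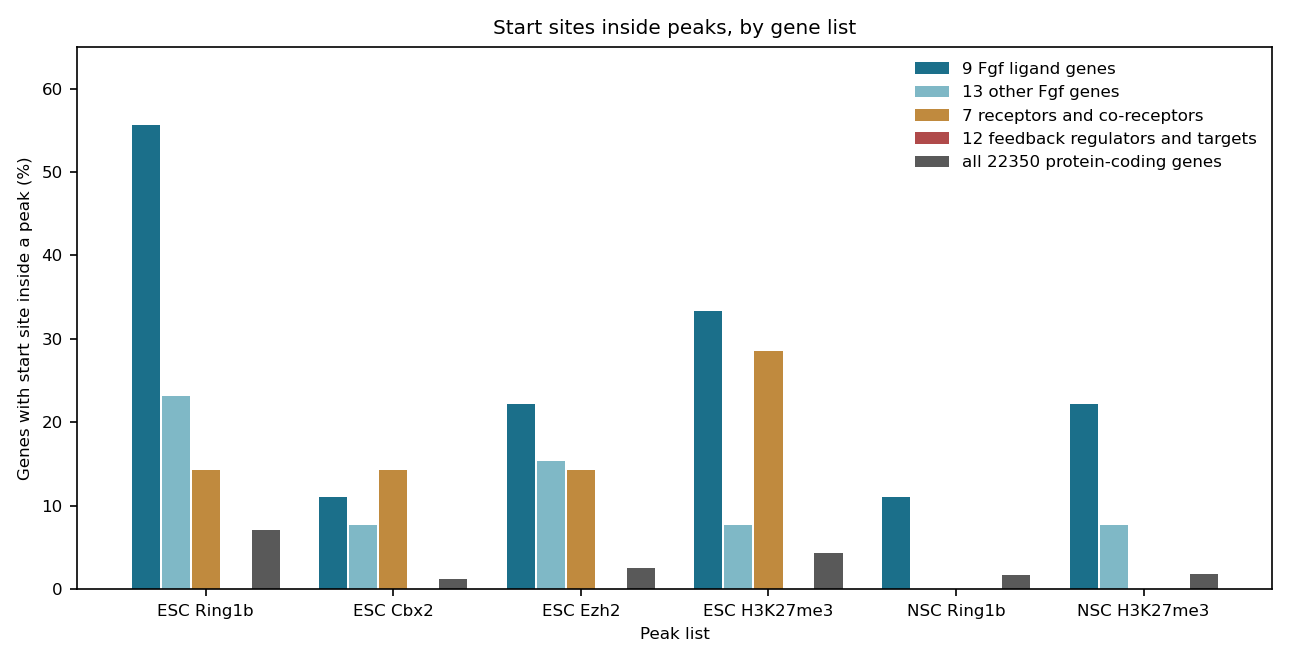
Share of genes with the start site inside a peak of each list, in percent, for the 9 Fgf ligand genes, 13 other Fgf genes, 7 receptors and co-receptors, 12 feedback regulators and targets (0 in every list) and all 22350 protein-coding genes. The 9 genes reach 55.6% for ESC Ring1b, where all genes stand at 7.03%.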

How the data were processed

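ChIP-seq peak lists of 6 libraries were analysed, 1 per cell type and target, with samples grouped by their titles. The 4 inputs were not analysed here. The deposited values (unit: other) are peak starts and ends in mm9, and the lists carry no counts, so depth is unknown and no interval is given. Per the paper, tags were mapped to mm9 with Bowtie, whereas the submitters' processing notes name BWA. The authors' caller slid windows of 1 kb in steps of 200 bp, tested tag numbers against input with a negative binomial model, tuned by eye, and joined neighbouring enriched windows, so a peak edge is no finer than this grid and loss or gain of a peak depends on the threshold of each list.

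Genes, exons and starts came from GENCODE vM1 and base composition from NCBIM37, which is mm9. Python 3.11.15 and numpy 2.4.6 were used to count overlaps (1 bp or more), with scripts tested on simulated data. RefSeq promoters, held by the table for 5 of the 9 genes, were placed on mm9 by exact match. RefSeq coordinates of the later build were not used. All 9 genes are described. Other pathway genes came from lists of 13 Fgf family genes, 7 receptors and co-receptors and 12 feedback regulators and targets, with 5 ESC and 6 NSC marker genes beside them, and were named where they had a peak, where their combination matched that of a ligand gene, or as unbound members of a list. Spry3 and Sox1 were not matched. The genes and lists were chosen with earlier results of these data known. With 1 library each, no test was made, and counts are set beside the share of all protein-coding genes. Alternatives were other flanks, a minimum width of 2 kb, merging of peaks within 3 kb, peaks with at least 50% inside the window, other starts and other definitions of targets. The RefSeq start was added after the data were seen.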

Additional observations from a re-analysis of the deposited data

How the results depend on the processing

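Flanks of 5 kb or 20 kb, at least 50% of the peak inside the window, and merging peaks within 3 kb left every count, and every covered share summed over the 9 genes, within 1.5 times its value. Of the 54 covered shares of single genes and lists, 12 moved by more with flanks of 5 kb and 12 with flanks of 20 kb, because the window is shorter or longer. Definitions of targets without Cbx2 or by H3K27me3 alone gave 4 genes rather than 3. Gene bodies alone raised the share of bases covered to 2.83% for ESC Cbx2, 4.31% for ESC Ezh2, 1.93% for NSC Ring1b and 3.49% for NSC H3K27me3, from 1.83%, 2.81%, 1.25% and 2.32%, because the denominator has no flanks. With peaks at least 2 kb wide, start sites in peaks fell to 1 for ESC Ezh2 and 0 for NSC Ring1b and NSC H3K27me3, and windows with a peak to 1 for NSC Ring1b and 0 for NSC H3K27me3, with 0% of bases covered by the latter. Windows that gained Ring1b then numbered 0, and for H3K27me3 0 were kept, 3 lost, 0 gained and 6 never marked. At starts, gained Ring1b and kept and gained H3K27me3 were each 0. Counting any annotated start gave 3 genes for ESC Cbx2, 4 for ESC Ezh2, 2 for NSC Ring1b and 4 for NSC H3K27me3, with Ring1b kept at 1 and H3K27me3 kept at 3 and lost at 1. A start within 1 kb of a peak gave 3 for ESC Cbx2, 4 for ESC Ezh2 and 2 that kept H3K27me3. RefSeq starts gave 3 for ESC Cbx2, 4 for ESC Ezh2, 2 for NSC Ring1b and 1 that kept Ring1b. Depth is unknown, so a peak missing in NSCs cannot be told from one under the threshold.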

Other observations

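Fgf3, Fgf4 and Fgf15 follow each other on the plus strand of chromosome 7, with 16949 bp between Fgf3 and Fgf4, 31288 bp between Fgf4 and Fgf15 and no other protein-coding gene in the 82.9 kb from 152013988 to 152096858. In NSCs this stretch held 3 H3K27me3 peaks, 1 over the start of each gene record, and no Ring1b peak. Over all protein-coding genes, 1.77% had the start inside an NSC H3K27me3 peak. At Fgf3 the peak reached only 12 bp past the start. The other annotated start of Fgf3, at 152024500, and its RefSeq start lay outside this NSC peak. The peak at Fgf4, a ligand that ESCs make for themselves, was the widest of the 3 at 2200 bp and reached 1109 bp past the start, and the others were 1000 bp. In ESCs the stretch held 2 Ring1b peaks, at Fgf3 and Fgf15, and 1 peak each of Cbx2, Ezh2 and H3K27me3, all at Fgf3, while Fgf4 had no ESC peak. Fgf4 is not one of the 9 genes and was looked at after its values were seen.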
